A study of Homo sapiens with 36 samples.

Results

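The response to the BET inhibitor JQ1 was compared between NEUROD1 knockout clones 15 and 2-1 of H446. H446 is a long-established cell line from small-cell lung cancer and belongs to the SCLC-N subtype, defined by the neural transcription factor NEUROD1. The 12 libraries of these clones, of 36 in the study, were selected by their labels and fell into 4 groups of 3: knockout clone 15 with JQ1, knockout clone 15 with DMSO, knockout clone 2-1 with JQ1 and knockout clone 2-1 with DMSO. JQ1 was given at 1 µM for 24 h, and DMSO, its solvent, for the same time. Both clones were made from H446 with the same guide RNA, #297, against NEUROD1, and control clones 3, 10 and 13 carry a non-targeting guide. A clone is 1 derivation of the line, and the 3 biological replicates of a group are libraries of that clone, so every p-value measures the spread between libraries of these 2 clones and not between knockout clones in general. Poly(A) RNA was sequenced from bulk cultures, in which fewer cells of a type and less RNA per cell cannot be told apart.

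BET proteins such as BRD2 bind acetylated histones and help RNA polymerase II to leave the promoter, in part through the elongation kinase P-TEFb. JQ1 occupies their bromodomains and displaces them from chromatin. HEXIM1, an inhibitor of P-TEFb, is known to rise when BET proteins are inhibited, and histone genes are known to do so as well. NEUROD1 normally drives neuronal and neuroendocrine genes in SCLC-N cells.

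The targeted gene was read first. NEUROD1 had 0 reads in each of the 6 libraries of clone 15, which allows up to 3 reads per library. Clone 2-1 had 10, 6 and 4 NEUROD1 reads with JQ1, against 4, 5 and 7 with DMSO, and the control clones had 4740 to 9169 reads per library. NEUROD1 transcript was therefore near 0 in both clones and above the count of clone 15 in all 6 libraries of clone 2-1, and it was too low to be tested. The 12 libraries held 15360100 to 18890506 reads, and for each pair of replicates chi-square over its degrees of freedom lay between 2.53 and 4.84, above the value of sampling noise alone. The most abundant transcript was the imprinted gene PEG10 in every JQ1 library, with 3.26% to 3.41% of reads in clone 15 and 1.96% to 2.05% in clone 2-1, and the translation factor EEF1A1 in every DMSO library. Of the 24 genes of a neuroendocrine score in the table, 16 to 20 had a group mean of at least 10 normalized counts. Of the 9 blood and immune markers in the table, at most 3 did, and the antibody chain IGJ and the complement gene C1QB were at 0 in all 4 groups. The summed level of these 9 markers was 227 to 259 with JQ1 and 258 to 297 with DMSO in clone 15, and 839 to 915 with JQ1 and 922 to 942 with DMSO in clone 2-1, most of it the lysosomal gene CD68; its part in the results was not tested.

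Most of the JQ1 response was shared. Levels are given as normalized counts, which are corrected for depth but not for gene length, and a response is the JQ1 minus DMSO difference on the log2(normalized count + 1) scale. Of 15913 genes tested, 9906 responded in clone 15 (62.3%; 4628 or 29.1% higher and 5278 or 33.2% lower) and 10190 in clone 2-1 (64.0%; 4719 or 29.7% higher and 5471 or 34.4% lower), at an adjusted p of at most 0.05 in limma. The balance of rises and falls depended on the scaling. Rises made up 46.7% of the calls in clone 15 and 46.3% in clone 2-1. With equal library totals they made up 40.6% and 39.5%, and with TMM, another scaling of libraries, 52% and 50.6%. The same direction was called in both clones for 7719 genes (48.5%). The genes higher in both numbered 3660 (23.0%), which is 79.1% of the rises of clone 15 and 77.6% of those of clone 2-1. The genes lower in both numbered 4059 (25.5%), or 76.9% of the falls of clone 15 and 74.2% of those of clone 2-1. Large changes were mostly falls, since 613 genes (3.85%) were at least 2-fold higher and 1662 (10.4%) at least 2-fold lower in clone 15, against 590 (3.71%) and 2069 (13.0%) in clone 2-1. The JQ1 and DMSO libraries did not overlap in 65.8% of genes in clone 15 and 68.4% in clone 2-1. The responses had similar sizes, with a median absolute log2 response of 0.36 in both clones over the 11765 genes expressed in both (a mean of at least 50 in at least 1 treatment of each clone). Across those genes the Pearson correlation of the 2 responses was 0.876, a description over genes that are not independent of each other; the 2 responses share no library.

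**Figure D1:**
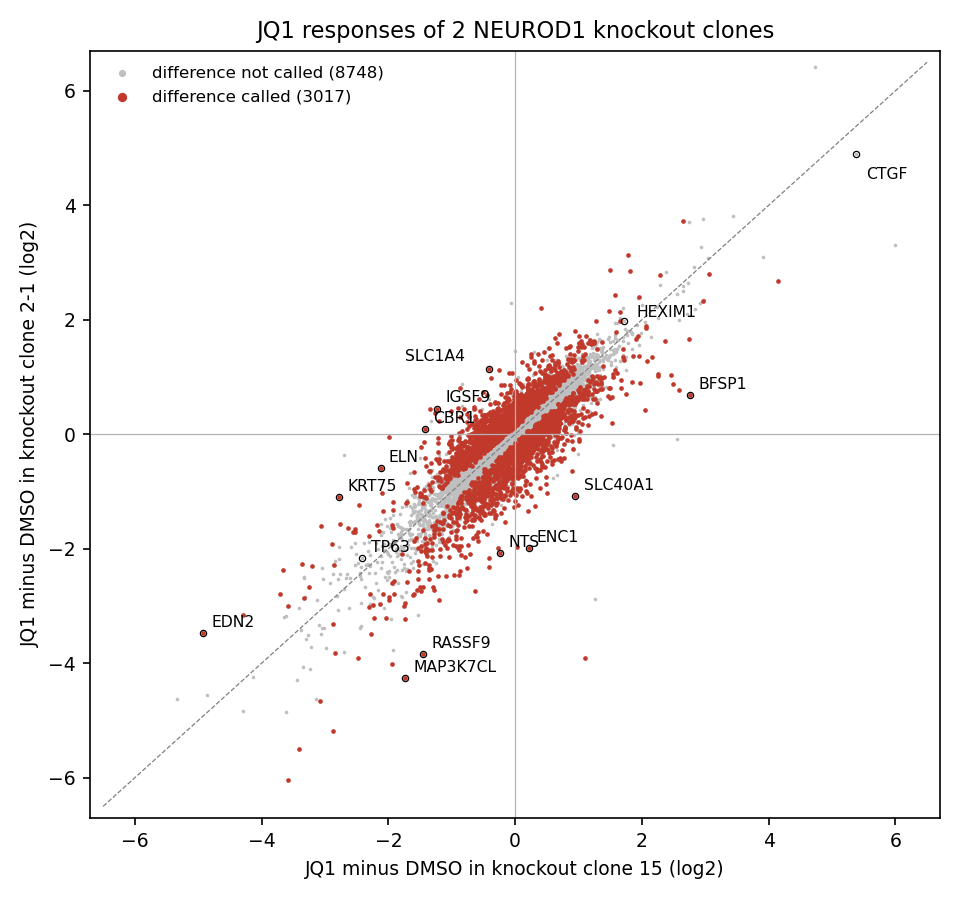
The log2 JQ1 minus DMSO response of knockout clone 15 (x axis) is plotted against that of knockout clone 2-1 (y axis) for 11765 genes expressed in both clones, with genes whose response difference passed the test in red (3017) and the others in grey. Most points lie along the dashed line of equal response, and the labelled genes ENC1, SLC40A1, NTS, MAP3K7CL, RASSF9 and BFSP1 lie below it and SLC1A4, IGSF9, CBR1, ELN and KRT75 above it.

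In a list of 9 transcripts that BET inhibitors are known to raise, 8 rose in each clone (beside 29.1% and 29.7% of all genes), and ZMYND8, a chromatin reader, fell in both (-1.11 in clone 15 and -1.39 in clone 2-1). The response difference was positive in 4 of the 9 and negative in 1, beside 10.4% and 10.3% over all genes. With FPKM it was positive in 1 and negative in 0, beside 4.51% and 4.73% over all genes. In edgeR and in DESeq2 it was positive in 5 and negative in 2. The negative call in limma, SERPINI1 (-0.35, adjusted p = 0.043), was lost when some single libraries were left out. So was the positive call of HIST2H2BE (0.26, adjusted p = 0.031). HEXIM1 had 2896, 2564 and 2875 normalized counts with JQ1, against 792, 931 and 800 with DMSO, in clone 15, and 3291, 3452 and 3192 with JQ1, against 898, 791 and 838 with DMSO, in clone 2-1. The JQ1 and DMSO libraries did not overlap in either clone. The responses were 1.72 ± 0.06 in clone 15 and 1.98 ± 0.06 in clone 2-1 (log2 ± SE, n = 3 against 3). Their difference of -0.25 did not pass (adjusted p = 0.063, 95% interval -0.44 to -0.06), and it passed when clone 15 DMSO replicate 1 (-0.29, adjusted p = 0.042) or clone 2-1 DMSO replicate 1 (-0.30, adjusted p = 0.038) was left out.

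BRD2, itself a BET protein, had 10067, 9833 and 9390 normalized counts with JQ1, against 2318, 2365 and 2327 with DMSO, in clone 15, and 12990, 12853 and 13036 with JQ1, against 3495, 3449 and 3511 with DMSO, in clone 2-1. Every JQ1 library lay far above every DMSO library of its clone. The rise was slightly larger in clone 15, 2.06 ± 0.03 against 1.89 ± 0.03 in clone 2-1 (difference 0.17, adjusted p = 0.011). MYC, the growth-promoting transcription factor, rose by a log2 response of 1.64 ± 0.06 in clone 15 and 1.54 ± 0.06 in clone 2-1, and the difference of 0.10 did not pass (adjusted p = 0.40, 95% interval -0.06 to 0.27). CDKN1A, which encodes the cell cycle inhibitor p21, rose by 1.93 ± 0.04 in clone 15 and 1.72 ± 0.04 in clone 2-1 (difference 0.21, adjusted p = 0.0092). SAT1, an enzyme of polyamine breakdown, rose by 1.73 ± 0.04 in clone 15 and 1.31 ± 0.04 in clone 2-1, and its difference was larger (0.42, adjusted p = 1.6e-05).

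The largest shared rise by the smaller of the 2 responses was that of CTGF, a secreted matricellular protein. CTGF had 558, 535 and 589 normalized counts with JQ1, against 20.4, 11.7 and 8.12 with DMSO, in clone 15, and 247, 233 and 222 with JQ1, against 8.22, 4.03 and 9.42 with DMSO, in clone 2-1. The groups did not overlap, and the responses of 5.37 ± 0.28 in clone 15 and 4.90 ± 0.28 in clone 2-1 did not differ beyond their spread (difference 0.47, adjusted p = 0.45, 95% interval -0.37 to 1.32). Of 29 histone genes tested, 24 rose in clone 15 and 25 in clone 2-1, beside 29.1% and 29.7% of all genes. Of the 29, 23 rose in both clones and 0 fell in either clone. Their median responses were 1.51 and 1.67, beside medians of -0.05 and -0.06 over all genes tested. HIST2H2BE, a polyadenylated H2B gene, rose by 3.06 ± 0.06 in clone 15 and 2.80 ± 0.06 in clone 2-1. The histone genes HIST2H3A, HIST2H3C, HIST2H4A, HIST2H4B and HIST2H2AA3 have near-identical copies that could share reads, and no single value is given for them.

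The largest shared falls were of genes that ended near 0. HTR1A, a serotonin receptor, had 2.81, 0.934 and 2.55 normalized counts with JQ1, against 135, 101 and 121 with DMSO, in clone 15, and 5.10, 10.4 and 17 with JQ1, against 281, 221 and 302 with DMSO, in clone 2-1. The fall was -5.33 ± 0.35 in clone 15 and -4.63 ± 0.35 in clone 2-1, and the difference did not pass (-0.70, adjusted p = 0.36, 95% interval -1.75 to 0.35). MIR205HG, the host transcript of the epithelial microRNA miR-205, fell by 4.86 in clone 15 and by 4.56 in clone 2-1. The dopamine-signalling phosphatase inhibitor PPP1R1B fell by 3.41 in clone 15 and by 5.50 in clone 2-1 (difference 2.09, adjusted p = 0.019). TP63, the transcription factor of basal epithelium, fell by 2.41 in clone 15 and by 2.17 in clone 2-1, at very different levels: 907, 924 and 977 with JQ1 against 4802, 5163 and 4950 with DMSO in clone 15, and 25.5, 28.2 and 30.3 with JQ1 against 115, 121 and 155 with DMSO in clone 2-1. The difference in the TP63 response was -0.24 (adjusted p = 0.25, 95% interval -0.53 to 0.05); without clone 2-1 DMSO replicate 3 it was -0.37 and passed (adjusted p = 0.034).

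A response difference, tested as the interaction of clone and treatment (clone 15 minus clone 2-1), was called for 3302 genes (20.8%), 1658 of them positive and 1644 negative. Of the 3017 called genes that were expressed in both clones, 760 rose in both and 849 fell in both. In 260 genes both responses passed and had opposite signs (1.63% of genes tested), 113 of them (0.710%) higher in clone 15 and lower in clone 2-1 and 147 (0.924%) the reverse, and both absolute log2 responses reached 0.5 in only 16 of the 260. At least 2-fold differences numbered 301 positive (1.89%) and 141 negative (0.886%). Only 114 of the 301 and 53 of the 141 were in genes expressed in both clones. The others lay below a mean of 50 normalized counts in both treatments of at least 1 clone: of the positive ones 63 in clone 15 alone, 29 in clone 2-1 alone and 95 in both clones, and of the negative ones 3 in clone 15 alone, 42 in clone 2-1 alone and 43 in both. Among genes expressed in both clones the share called was 25.6% (3017 of 11765; 12.4% positive and 13.2% negative), and among the other 4148 genes it was 6.87%.

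The largest positive differences in genes expressed in both clones were mostly falls in clone 2-1 that clone 15 did not show or showed to a smaller extent. ENC1, an actin-binding adaptor of neural cells on chromosome 5, had 1278, 1402 and 1283 normalized counts with JQ1, against 1149, 1135 and 1133 with DMSO, in clone 15. In clone 2-1 ENC1 had 1030, 983 and 1094 with JQ1, against 4032, 4264 and 4029 with DMSO. JQ1 libraries lay above DMSO libraries in clone 15 and far below them in clone 2-1, without overlap in either. ENC1 rose by 0.21 ± 0.05 in clone 15 and had a response of -1.99 ± 0.05 in clone 2-1, a difference of 2.20 ± 0.07 (adjusted p = 7.8e-13). The rise in clone 15 was not called with FPKM (0.10, adjusted p = 0.44).

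SLC40A1 encodes ferroportin, the cellular iron exporter, and lies on chromosome 2. It had 266, 234 and 220 normalized counts with JQ1, against 128, 130 and 113 with DMSO, in clone 15, and 1763, 1719 and 1712 with JQ1, against 3671, 3501 and 3841 with DMSO, in clone 2-1. The transcript thus moved in opposite directions, each without overlap, by 0.95 ± 0.07 in clone 15 and -1.08 ± 0.07 in clone 2-1 (difference 2.03, adjusted p = 5.9e-10). PAQR8, a membrane progestin receptor, had 697, 665 and 662 with JQ1, against 562, 574 and 613 with DMSO, in clone 15, and 383, 383 and 342 with JQ1, against 877, 972 and 971 with DMSO, in clone 2-1. Its small rise in clone 15 (0.21 ± 0.06) stood against a fall in clone 2-1 (-1.35 ± 0.06; difference 1.56, adjusted p = 3.2e-09). That rise was not called with equal library totals (0.14, adjusted p = 0.061) or FPKM (0.15, adjusted p = 0.17), and overlapping annotation makes the PAQR8 counts uncertain. NTS, the neuropeptide neurotensin, had 27590, 26238 and 26798 with JQ1, against 32373, 30867 and 31865 with DMSO, in clone 15, and 1568, 1607 and 1585 with JQ1, against 6485, 6861 and 6725 with DMSO, in clone 2-1. NTS fell in both clones, slightly in clone 15 (-0.24 ± 0.03) and strongly in clone 2-1 (-2.08 ± 0.03; difference 1.84, adjusted p = 2.6e-14).

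**Figure D2:**
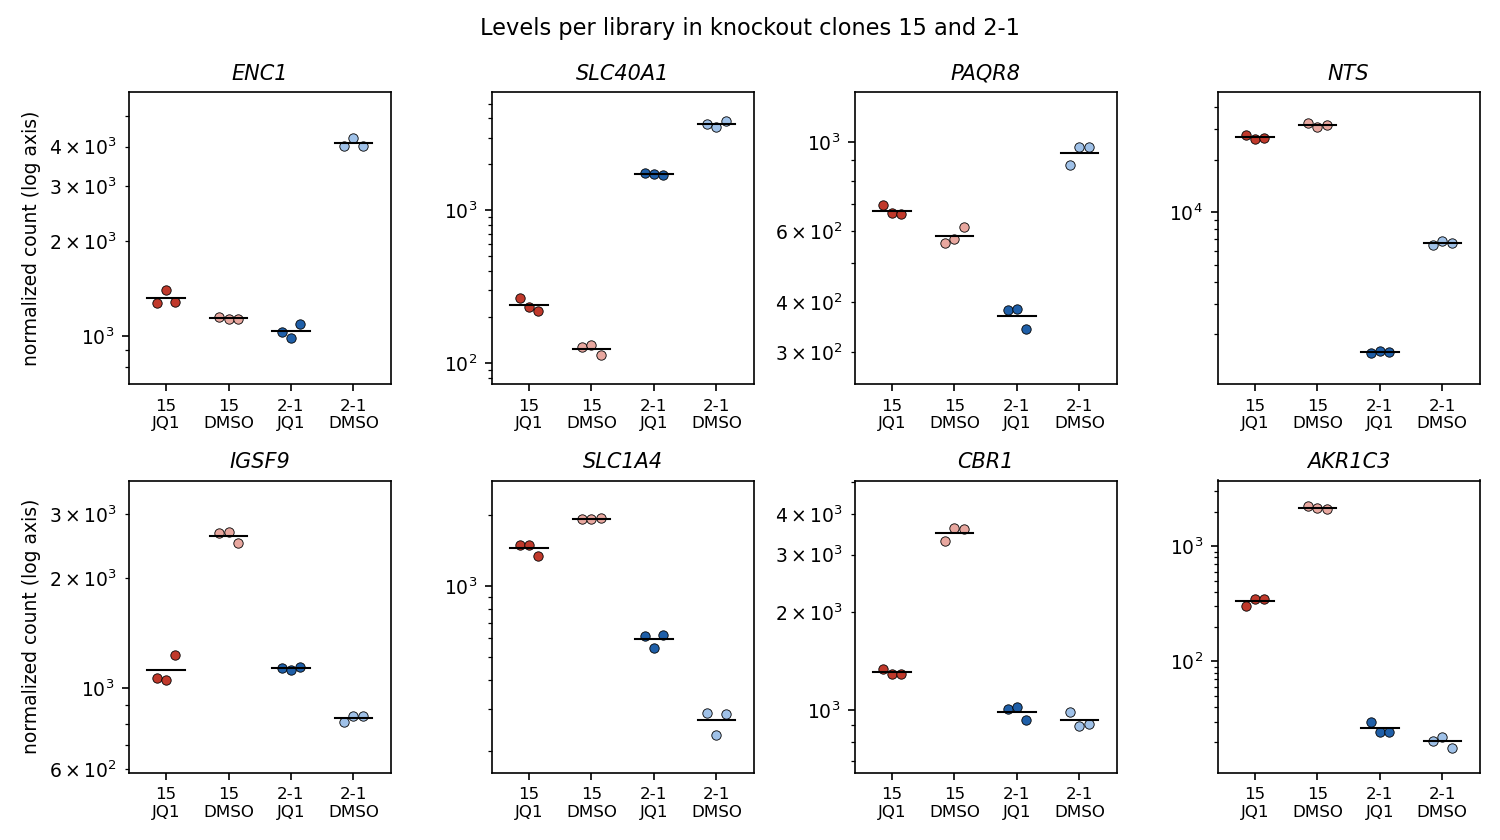
Normalized counts (log axis) of 8 genes are shown per library for knockout clone 15 with JQ1 and DMSO and knockout clone 2-1 with JQ1 and DMSO; points are libraries and bars are means of 3. ENC1 lies between 983 and 1402 in clone 15 and in clone 2-1 with JQ1, and between 4029 and 4264 in clone 2-1 with DMSO, while IGSF9 and SLC1A4 fall with JQ1 in clone 15 and rise in clone 2-1.

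Other genes differed in the size of the same move. MAP3K7CL had 216, 171 and 177 normalized counts with JQ1, against 621, 620 and 631 with DMSO, in clone 15, and 41.8, 68.7 and 79.5 with JQ1, against 1182, 1194 and 1184 with DMSO, in clone 2-1, so that clone 15 was higher than clone 2-1 with JQ1 and lower with DMSO (difference 2.52, adjusted p = 4.8e-07). RASSF9 (difference 2.38) and AKAP6, a scaffold of protein kinase A (difference 1.91), also fell more in clone 2-1. BFSP1, a lens intermediate filament protein, went the other way: it had 276, 259 and 269 with JQ1, against 39.9, 39.9 and 36.5 with DMSO, in clone 15, and 52.1, 65.9 and 50.2 with JQ1, against 29.8, 37.3 and 35.8 with DMSO, in clone 2-1. The DMSO levels of BFSP1 overlapped between the clones, and its rise was 2.76 ± 0.17 in clone 15 and 0.69 ± 0.17 in clone 2-1 (adjusted p = 9.4e-06). BAIAP3, a factor of dense-core vesicle release, likewise rose by 2.59 in clone 15 and 0.78 in clone 2-1. MYCL, a MYC relative that is low here, had overlapping values of 44.7 to 59.0 normalized counts in all libraries of clone 15, and 21.4, 26.4 and 16.1 with JQ1, against 81.2, 77.6 and 96.1 with DMSO, in clone 2-1 (difference 1.99, adjusted p = 2.0e-04).

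The negative differences included falls in clone 15 and rises that were larger in clone 2-1. Among called genes expressed in both clones, 305 fell in clone 15 with no call in clone 2-1. Another 316 rose in clone 2-1 with no call in clone 15, and 142 fell in clone 15 and rose in clone 2-1. IGSF9, a neural adhesion molecule on chromosome 1, had 1070, 1055 and 1231 normalized counts with JQ1, against 2652, 2682 and 2494 with DMSO, in clone 15, and 1134, 1124 and 1143 with JQ1, against 811, 839 and 839 with DMSO, in clone 2-1. With JQ1 the clones came to similar levels, by a response of -1.22 ± 0.05 in clone 15 and 0.45 ± 0.05 in clone 2-1 (difference -1.67, adjusted p = 2.4e-10). SLC1A4, a transporter of alanine, serine and cysteine, had 1490, 1498 and 1347 with JQ1, against 1925, 1926 and 1939 with DMSO, in clone 15, and 614, 549 and 620 with JQ1, against 291, 234 and 287 with DMSO, in clone 2-1. SLC1A4 fell by 0.42 in clone 15 and rose by 1.14 in clone 2-1 (difference -1.56, adjusted p = 1.9e-08). The elastic fibre gene ELN fell by 2.12 in clone 15 and by 0.59 in clone 2-1 (difference -1.53). PGBD5, derived from a transposase, rose by 0.41 in clone 15 and 2.21 in clone 2-1, and KHDRBS3, an RNA-binding protein, rose in both clones and more in clone 2-1 (difference -1.37).

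The aldo-keto reductases and carbonyl reductase 1 fell in clone 15. AKR1C1, AKR1C2 and AKR1C3, which reduce steroids and aldehydes and are known targets of the stress factor NRF2, lie together on chromosome 10. The sequences upstream of their starts are shown because these neighbouring genes all fell with JQ1 in clone 15. The near-identity of AKR1C1 and AKR1C2 also bears on how their reads can be told apart. Each window is the 250 bases before an annotated start from RefSeq (GRCh38.p14). Capitals mark matches, on either strand, to TGANNNNGC. This is a loose pattern for the core of the antioxidant response element, to which NRF2 binds, and binding at a match was not tested.
AKR1C3, chr10:5048531-5048780, plus strand: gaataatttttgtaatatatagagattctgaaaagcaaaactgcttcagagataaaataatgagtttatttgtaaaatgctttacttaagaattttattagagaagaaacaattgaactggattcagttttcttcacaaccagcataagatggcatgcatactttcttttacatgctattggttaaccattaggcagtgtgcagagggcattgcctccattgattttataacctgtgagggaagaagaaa
AKR1C3, chr10:5094164-5094413, plus strand: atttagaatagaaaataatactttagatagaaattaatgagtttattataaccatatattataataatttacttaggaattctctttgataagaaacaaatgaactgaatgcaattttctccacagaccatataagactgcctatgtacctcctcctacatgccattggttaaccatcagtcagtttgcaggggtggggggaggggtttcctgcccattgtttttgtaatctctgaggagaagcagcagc
AKR1C2, chr10:5003858-5004107, minus strand: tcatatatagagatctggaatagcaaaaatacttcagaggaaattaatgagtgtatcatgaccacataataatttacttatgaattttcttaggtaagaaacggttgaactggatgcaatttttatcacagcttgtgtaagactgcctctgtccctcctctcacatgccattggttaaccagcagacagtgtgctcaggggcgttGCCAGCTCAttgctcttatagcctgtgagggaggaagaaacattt
AKR1C1, chr10:4963165-4963414, plus strand: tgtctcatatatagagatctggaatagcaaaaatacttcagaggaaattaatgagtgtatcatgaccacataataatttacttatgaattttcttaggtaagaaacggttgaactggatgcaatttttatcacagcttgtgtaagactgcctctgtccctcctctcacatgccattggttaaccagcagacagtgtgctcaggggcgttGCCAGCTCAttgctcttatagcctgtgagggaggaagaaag
One match stood in the AKR1C2 window and 1 in the AKR1C1 window, and 0 in either AKR1C3 window; 35.2% of all 35116 promoter windows of this length hold at least 1. TGANTCA, the AP-1 motif, had 0 matches in the 4 windows, against 6.57% of all windows. In alignments with gaps, the AKR1C1 and AKR1C2 windows matched at 245 bases, or 98% of the window length of 250. These 2 windows are offset by a few bases, which count as unmatched. Either AKR1C3 window matched those of AKR1C1 and AKR1C2 at 74.4% to 75.6%.

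AKR1C3 had 301, 346 and 350 normalized counts with JQ1, against 2248, 2140 and 2102 with DMSO, in clone 15, and 29.6, 24.5 and 24.6 with JQ1, against 20.5, 22.2 and 17.9 with DMSO, in clone 2-1. The fall in clone 15 was -2.70 ± 0.12; the rise in clone 2-1 (0.36 ± 0.12) was close to the threshold (adjusted p = 0.017) and was lost without clone 2-1 DMSO replicate 3 (0.28, adjusted p = 0.066) or clone 2-1 JQ1 replicate 1 (0.27, adjusted p = 0.072), and in edgeR (adjusted p = 0.17) and DESeq2 (adjusted p = 0.19). AKR1C2 had 447, 409 and 385 with JQ1, against 2037, 2020 and 2049 with DMSO, in clone 15, and 5.10, 14.1 and 9.47 with JQ1, against 11.3, 20.1 and 14.1 with DMSO, in clone 2-1. Clone 2-1 held little AKR1C transcript with either treatment. AKR1C2 fell by 2.30 ± 0.25 in clone 15, and its response in clone 2-1, where the libraries overlapped, was -0.68 ± 0.25 (adjusted p = 0.024). AKR1C1 fell by 2.26 ± 0.20 in clone 15 and by 0.84 ± 0.20 in clone 2-1 (adjusted p = 0.0012). Reads of AKR1C1 and AKR1C2 may be split between them, so each single value is uncertain. CBR1, a carbonyl reductase on chromosome 21, was expressed in both clones and had 1342, 1291 and 1290 with JQ1, against 3304, 3634 and 3585 with DMSO, in clone 15, and 1005, 1026 and 934 with JQ1, against 988, 896 and 908 with DMSO, in clone 2-1. It fell in clone 15 (-1.42 ± 0.05) and its response in clone 2-1 did not pass (0.09 ± 0.05, adjusted p = 0.15; difference -1.51, adjusted p = 4.5e-10). Of 30 tested genes of the NRF2 and glutathione list, 12 had a negative response difference and 3 a positive one, beside 10.3% negative and 10.4% positive over all genes tested.

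Genes of G2 and mitosis fell in both clones and more in clone 15. Of 57 tested, 51 fell and 4 rose in clone 15, and 42 fell and 5 rose in clone 2-1. Over all genes 33.2% and 34.4% fell and 29.1% and 29.7% rose. The response difference was negative in 37 and positive in 2, against the 10.3% and 10.4% over all genes. With FPKM it was negative in 30 and positive in 0, where the shares over all genes were 4.73% negative and 4.51% positive. These shares over all genes, in limma and with FPKM, are the same for every list below. The median response was -0.68 in clone 15 and -0.34 in clone 2-1. CDK1, the kinase that starts mitosis, had 1068, 1056 and 1009 normalized counts with JQ1, against 1724, 1755 and 1793 with DMSO, in clone 15, and 2471, 2305 and 2403 with JQ1, against 2323, 2494 and 2441 with DMSO, in clone 2-1. CDK1 fell without overlap in clone 15 (-0.75 ± 0.04) and the groups overlapped in clone 2-1 (-0.02 ± 0.04, adjusted p = 0.76; difference -0.73, adjusted p = 1.5e-07). CDC20, an activator of the anaphase-promoting complex, had 3386, 3118 and 2883 with JQ1, against 3925, 3938 and 3982 with DMSO, in clone 15, and 7342, 7321 and 6904 with JQ1, against 6048, 5836 and 6146 with DMSO, in clone 2-1. It moved down in clone 15 (-0.34 ± 0.05) and up in clone 2-1 (0.26 ± 0.05; difference -0.60, adjusted p = 5.2e-06). CKS2, a CDK-binding subunit, and the tubulin TUBB4B rose in both clones, by 0.58 and 1.00 in clone 15 and 1.29 and 1.71 in clone 2-1. The list was also lower in clone 15 with DMSO, with 34 of 57 genes lower and 11 higher, beside 28.6% lower and 30.3% higher over all genes; the DMSO and response differences share the DMSO libraries.

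Genes of G1/S and replication did not share one direction. Of 49 tested, 19 rose and 20 fell in clone 15, 22 rose and 17 fell in clone 2-1, and the response difference was negative in 11 and positive in 5, beside 10.3% and 10.4% over all genes (5 and 3 with FPKM). Rises made up 29.1% of all genes in clone 15 and 29.7% in clone 2-1, and falls 33.2% and 34.4%. EXO1, a nuclease of DNA repair, fell by 0.88 in clone 15 and by 0.25 in clone 2-1, and the replication initiator MCM10 fell by 1.02 in clone 15 and by 0.48 in clone 2-1. Among 14 CDK inhibitors, D cyclins and pocket proteins, 6 had a positive and 2 a negative difference (4 and 0 with FPKM). CDKN2B, the CDK4 inhibitor p15, had 978, 993 and 966 normalized counts with JQ1, against 597, 570 and 530 with DMSO, in clone 15, and overlapping levels of 1158, 1191 and 1222 with JQ1, against 1100, 1068 and 1178 with DMSO, in clone 2-1 (responses 0.79 and 0.10; difference 0.70, adjusted p = 5.1e-06). The D cyclin CCND2 fell by 0.23 in clone 15 and by 0.87 in clone 2-1.

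**Figure D3:**
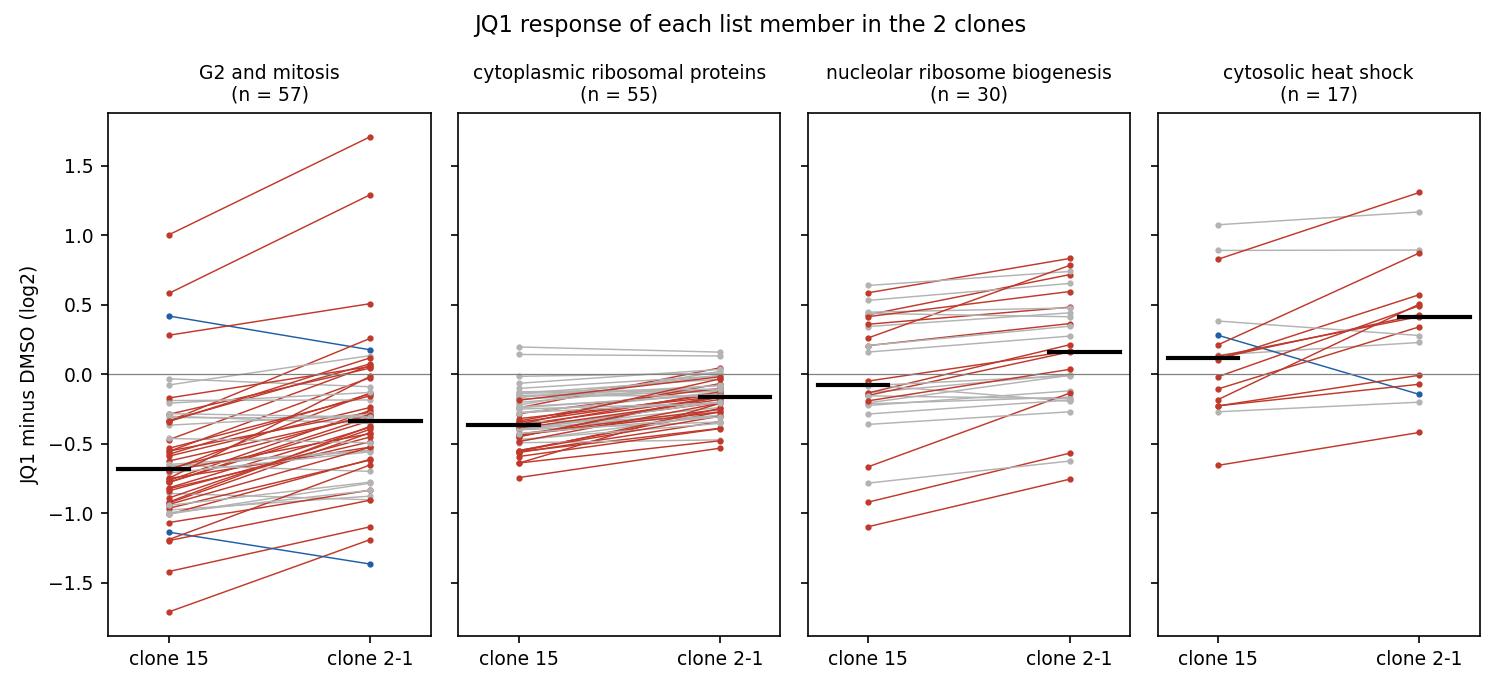
The log2 JQ1 minus DMSO response of each tested member of 4 gene lists is shown in knockout clone 15 (left) and knockout clone 2-1 (right), joined by a line that is red for a negative response difference past the threshold, blue for a positive one and grey otherwise; black bars are medians. The median of the G2 and mitosis genes is -0.68 in clone 15 and -0.34 in clone 2-1, and most lines rise toward clone 2-1.

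Most cytoplasmic ribosomal protein genes fell in both clones. Of 55 cytoplasmic ribosomal protein genes, 51 fell in clone 15 and 42 in clone 2-1, beside 33.2% and 34.4% of all genes. The median responses of the 55 were -0.36 and -0.16. The response difference was negative in 25 and positive in 0, beside 10.3% and 10.4% over all genes. With FPKM it was negative in only 4 of the 55 (median -0.08), a share near the 4.73% over all genes. RPL35 of the large subunit, for example, had 5701, 5036 and 5412 normalized counts with JQ1, against 7804, 7936 and 8016 with DMSO, in clone 15, and 4998, 5340 and 5078 with JQ1, against 6452, 5749 and 6098 with DMSO, in clone 2-1, a fall without overlap in each clone (-0.56 and -0.25; difference -0.31, adjusted p = 0.0024). Of 30 nucleolar ribosome biogenesis genes, 13 had a negative difference and 0 a positive one (5 and 0 with FPKM). MYBBP1A, a nucleolar MYB-binding protein, fell by 0.67 in clone 15 and by 0.14 in clone 2-1, and BOP1, a factor of large subunit processing, rose by 0.26 in clone 15 and 0.78 in clone 2-1. All 13 mitochondrially encoded genes had a lower response in clone 15 than in clone 2-1, and the difference passed for 5 (1 with FPKM and 4 in DESeq2), MT-ND3 among them (-0.35 in clone 15 and -0.03 in clone 2-1; difference -0.32, adjusted p = 8.3e-04). Another of the 5, MT-ATP6, which overlaps MT-ATP8, had a difference of -0.46 that was not called without clone 15 JQ1 replicate 1, clone 15 DMSO replicate 1, clone 2-1 JQ1 replicate 3 or clone 2-1 DMSO replicate 3 (-0.40 to -0.37, adjusted p 0.059 to 0.066).

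Most response differences of cytosolic chaperones were negative. Of 17 cytosolic heat shock genes, 9 rose in clone 15 and 12 in clone 2-1, beside 29.1% and 29.7% of all genes. The median responses of the 17 were 0.12 and 0.41. The response difference was negative in 11 and positive in 1, beside 10.3% and 10.4% over all genes (7 and 1 with FPKM). DNAJB1, a co-chaperone of HSP70, rose by 0.83 ± 0.03 in clone 15 and 1.31 ± 0.03 in clone 2-1. BAG3, a partner of HSP70 in protein clearance, had overlapping levels of 1389, 1358 and 1389 with JQ1 and 1314, 1438 and 1440 with DMSO in clone 15, and 866, 841 and 865 with JQ1, against 593, 624 and 611 with DMSO, in clone 2-1 (difference -0.51, adjusted p = 3.8e-05). Of 23 sterol synthesis and uptake genes, 8 rose and 9 fell in clone 15, and 12 rose and 5 fell in clone 2-1. Over all genes 29.1% and 29.7% rose and 33.2% and 34.4% fell. Of the 23, 9 had a negative difference and 2 a positive one (5 and 2 with FPKM). SQLE, squalene epoxidase, had 1157, 1204 and 1210 normalized counts with JQ1, against 1224, 1209 and 1195 with DMSO, in clone 15, and 958, 893 and 969 with JQ1, against 586, 622 and 620 with DMSO, in clone 2-1. The SQLE libraries overlapped between treatments in clone 15 (-0.02, adjusted p = 0.71) and JQ1 libraries lay above DMSO libraries in clone 2-1 (0.62; difference -0.65, adjusted p = 3.4e-06). DHCR7, which catalyses the last step of cholesterol synthesis by one route, rose by 0.21 in clone 15 and 0.99 in clone 2-1, without overlap in either (difference -0.78, adjusted p = 6.4e-05).

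**Figure D4:**
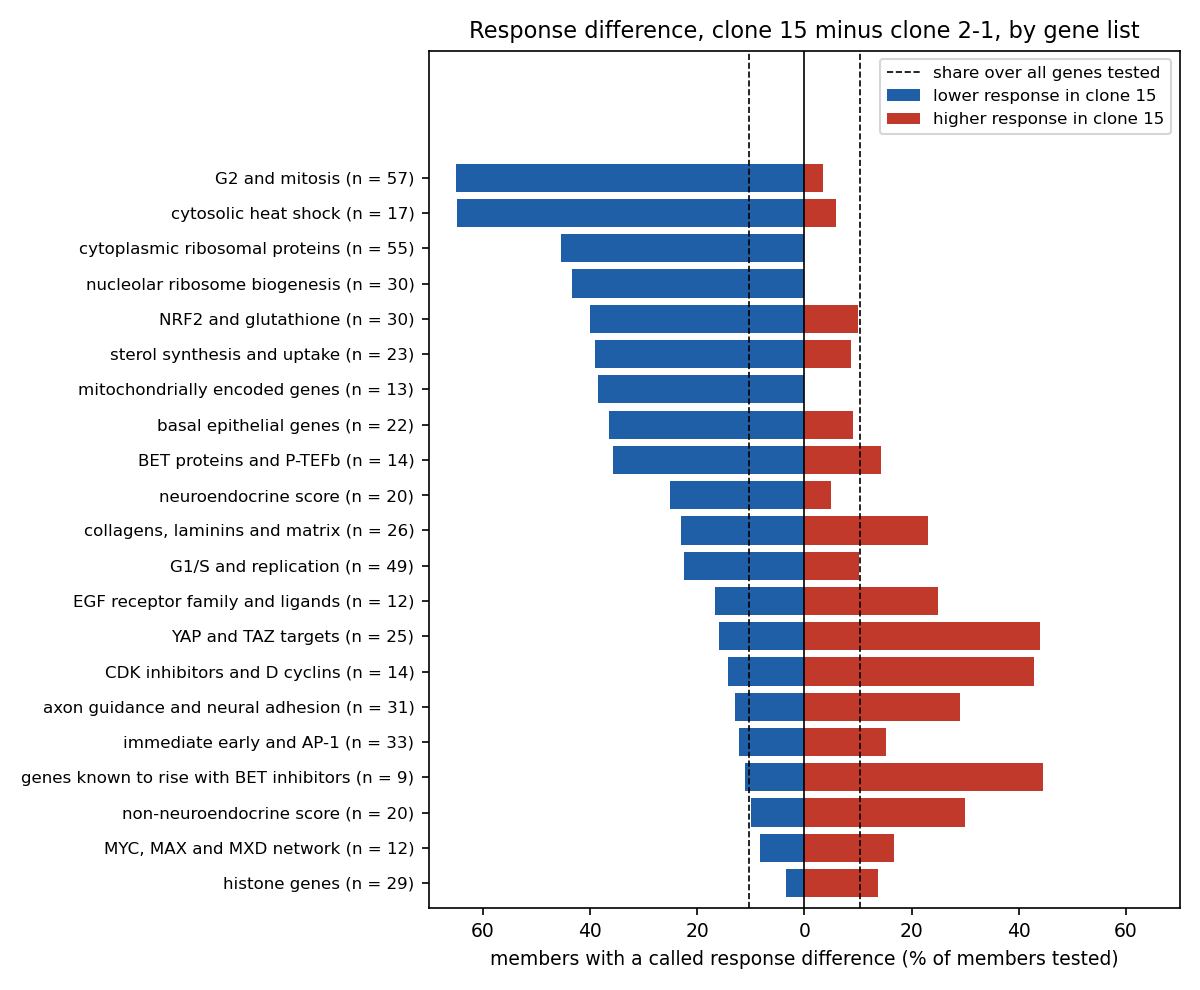
For 21 gene lists, bars give the percent of tested members with a response difference (knockout clone 15 minus knockout clone 2-1) past the threshold, lower to the left and higher to the right; n is the number tested and dashed lines are the shares over all genes tested (10.3% lower and 10.4% higher). G2 and mitosis genes (37 of 57) and cytosolic heat shock genes (11 of 17) have the highest shares on the left, and YAP and TAZ targets (11 of 25) are among the highest on the right.

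The BET and P-TEFb genes did not move as a unit. Of 14 tested, 11 rose in clone 15 and 10 in clone 2-1, beside 29.1% and 29.7% of all genes, and the response difference was negative in 5 and positive in 2, beside 10.3% and 10.4%. With FPKM 6 rose in clone 15 and 8 in clone 2-1, where fewer of all 15913 genes rose as well (3394 and 3401). The difference with FPKM was negative in 1 and positive in 1, beside 4.73% and 4.51% over all genes. ELL2, a subunit of the super elongation complex, had 3211, 3318 and 3309 normalized counts with JQ1, against 2669, 2853 and 2746 with DMSO, in clone 15, and 1908, 1865 and 1878 with JQ1, against 718, 676 and 740 with DMSO, in clone 2-1. ELL2 thus stayed higher in clone 15 with either treatment, and rose by 0.25 ± 0.04 there and by 1.40 ± 0.04 in clone 2-1 (difference -1.15, adjusted p = 6.4e-10). CCNT1, the cyclin of P-TEFb, rose in clone 15 (0.42) and not past the threshold in clone 2-1 (0.09, adjusted p = 0.064; difference 0.33, adjusted p = 0.0010).

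Targets of YAP and TAZ, the effectors of the Hippo pathway, had 11 positive and 4 negative differences among 25 tested, beside 10.4% and 10.3% over all genes (7 and 2 with FPKM). CYR61, a secreted matricellular protein like CTGF, had 5416, 5151 and 5221 normalized counts with JQ1, against 1535, 1595 and 1552 with DMSO, in clone 15, and 1351, 1210 and 1306 with JQ1, against 819, 777 and 769 with DMSO, in clone 2-1. The rise was 1.75 ± 0.05 in clone 15 and 0.71 ± 0.05 in clone 2-1 (difference 1.04, adjusted p = 5.0e-09). ANXA1, a phospholipid-binding protein of the non-neuroendocrine score, rose by 0.52 in clone 15 and fell by 0.27 in clone 2-1. Most genes of that score fell: of 20 tested, 14 fell and 3 rose in clone 15, and 14 fell and 2 rose in clone 2-1. Over all genes 33.2% and 34.4% fell and 29.1% and 29.7% rose. GADD45A, a stress-induced growth arrest gene, went against the list of YAP and TAZ targets, with a fall of -0.22 in clone 15 and a rise of 0.85 in clone 2-1. DUSP6, a phosphatase that limits ERK signalling, had 1489, 1389 and 1331 with JQ1, against 301, 353 and 339 with DMSO, in clone 15, and 1738, 1651 and 1638 with JQ1, against 686, 712 and 677 with DMSO, in clone 2-1, so the larger rise of clone 15 (2.08 against 1.27; difference 0.81, adjusted p = 4.3e-06) started from a lower DMSO level. JUNB, an AP-1 subunit, overlapped between treatments in clone 15 (0.25, adjusted p = 0.12) and rose in clone 2-1 (1.35; difference -1.10, adjusted p = 6.2e-04).

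Most basal epithelial genes were higher in clone 15 with DMSO and fell with JQ1. With DMSO, 19 of 22 tested were higher and 2 lower in clone 15, beside 30.3% and 28.6% of all genes. In clone 15, 20 of the 22 fell and 0 rose, and in clone 2-1, 15 fell and 1 rose. Over all genes 33.2% and 34.4% fell and 29.1% and 29.7% rose. The list had 8 negative and 2 positive response differences, beside 10.3% and 10.4% over all genes. KRT75, a keratin of hair follicles, had 419, 471 and 448 normalized counts with JQ1, against 2850, 3241 and 3123 with DMSO, in clone 15, and 245, 232 and 271 with JQ1, against 511, 544 and 546 with DMSO, in clone 2-1. It fell without overlap in both, by 2.78 in clone 15 and by 1.10 in clone 2-1 (difference -1.68, adjusted p = 2.9e-09). KRT15, a basal keratin, had 50.6, 65.4 and 49.3 with JQ1, against 1840, 1784 and 1625 with DMSO, in clone 15, and 1.02, 13.2 and 14.2 with JQ1, against 21.6, 27.2 and 15.1 with DMSO, in clone 2-1. KRT15 was too low in clone 2-1 for its own response there to be read closely (-1.52 ± 0.51). Only 11 of the 22 genes met the level for expression in both clones, and TRIM29 was at 0 in clone 2-1 with either treatment.

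Neuroendocrine and adhesion genes were mixed. Of 20 tested genes of the neuroendocrine score, 10 rose in each clone, beside 29.1% and 29.7% of all genes, and the difference was negative in 5 and positive in 1, beside 10.3% and 10.4% (1 and 0 with FPKM). SYP, synaptophysin of synaptic vesicles, rose by 0.68 in clone 15 and 1.28 in clone 2-1, while KIF1A, the motor of synaptic vesicle transport, fell in clone 15 (-0.32) and rose in clone 2-1 (0.56). Of 31 axon guidance and neural adhesion genes, 18 fell in clone 15 and 19 in clone 2-1, beside 33.2% and 34.4% of all genes, and NCAM2, a neural cell adhesion molecule, fell by 1.19 in clone 15 and by 2.13 in clone 2-1. Of 26 collagen, laminin and matrix genes, 21 fell in clone 15 and 20 in clone 2-1, with 6 positive and 6 negative differences (5 and 2 with FPKM). The proteoglycan VCAN had overlapping DMSO levels in the clones and separate levels with JQ1: 5758, 6418 and 5801 with JQ1, against 5979, 6575 and 6521 with DMSO, in clone 15, and 3004, 2956 and 3134 with JQ1, against 6256, 6232 and 6441 with DMSO, in clone 2-1 (difference 0.97, adjusted p = 9.9e-09).

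With DMSO the clones differed in 9365 genes (58.9%), 4819 higher (30.3%) and 4546 lower (28.6%) in clone 15, and the libraries of the clones did not overlap in 64.9% of genes. Some genes were absent from 1 clone. VIT, a matrix protein, EMCN, an endothelial sialomucin, and RFX4, a transcription factor of the neural tube, had 0 reads in all 6 libraries of clone 15. In clone 2-1 EMCN had 64.3, 76.2 and 58.7 normalized counts with JQ1, against 471, 511 and 470 with DMSO, and RFX4 had 89.8, 92.2 and 113 with JQ1, against 489, 539 and 503 with DMSO. The response difference printed for such genes is the response of clone 2-1 alone, and neither edgeR nor DESeq2 called it for VIT, EMCN or RFX4. In the other direction RIPK4, an epidermal kinase, had 66.5, 59.8 and 85.1 with JQ1, against 267, 297 and 266 with DMSO, in clone 15, and was at or near 0 in all libraries of clone 2-1. The matrix proteoglycans LUM and DCN marked clone 2-1: LUM had at most 14.2 normalized counts in any library of clone 15, and 2115, 2130 and 2054 with JQ1, against 16009, 15695 and 16668 with DMSO, in clone 2-1. The difference for DCN (1.94) rests on counts of at most 2.03 in clone 15 and was -0.56 in edgeR, without a call.

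The responses of the other 4 clones were set beside those of the 2 clones, and they single out 1 of the 2 for some genes only. For clone 12 the JQ1 replicate 1 library, which stood apart with 31825795 reads, was left out here, and no test was made. Of the 3017 genes expressed in both clones with a response difference, clone 15 lay outside the range of the other 4 clones and clone 2-1 inside it in 912 (30.23%), and the reverse held in 828 (27.44%), beside 20.01% and 18.66% of all 11765 genes. With the clone 12 library kept, the counts were 815 and 877, so neither clone was the more frequent outlier under both choices. With that library left out, both clones lay outside the range in 816 of the 3017 genes and both inside it in 461. Neither clone was singled out in those genes. ENC1 had positive responses in knockout clones 15 and 12 (0.21 and 0.97) and negative ones in clone 2-1 (-1.99) and in control clones 3, 10 and 13 (-0.86, -1.52 and -1.21). IGSF9 split the same way, with -1.22 and -1.02 in knockout clones 15 and 12 against 0.45 in clone 2-1 and 0.57 to 0.93 in control clones. SLC40A1 and PAQR8 were positive in all clones but 2-1. CBR1 was at -1.42 in clone 15, beyond the -0.26 of clone 12 and the 0.09 to 0.23 of clone 2-1 and the control clones. BFSP1 rose by about the same in clones 15 and 12 (2.76 and 3.02), against 0.69 in clone 2-1 and 0.07 to 0.26 in control clones.

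**Figure D5:**
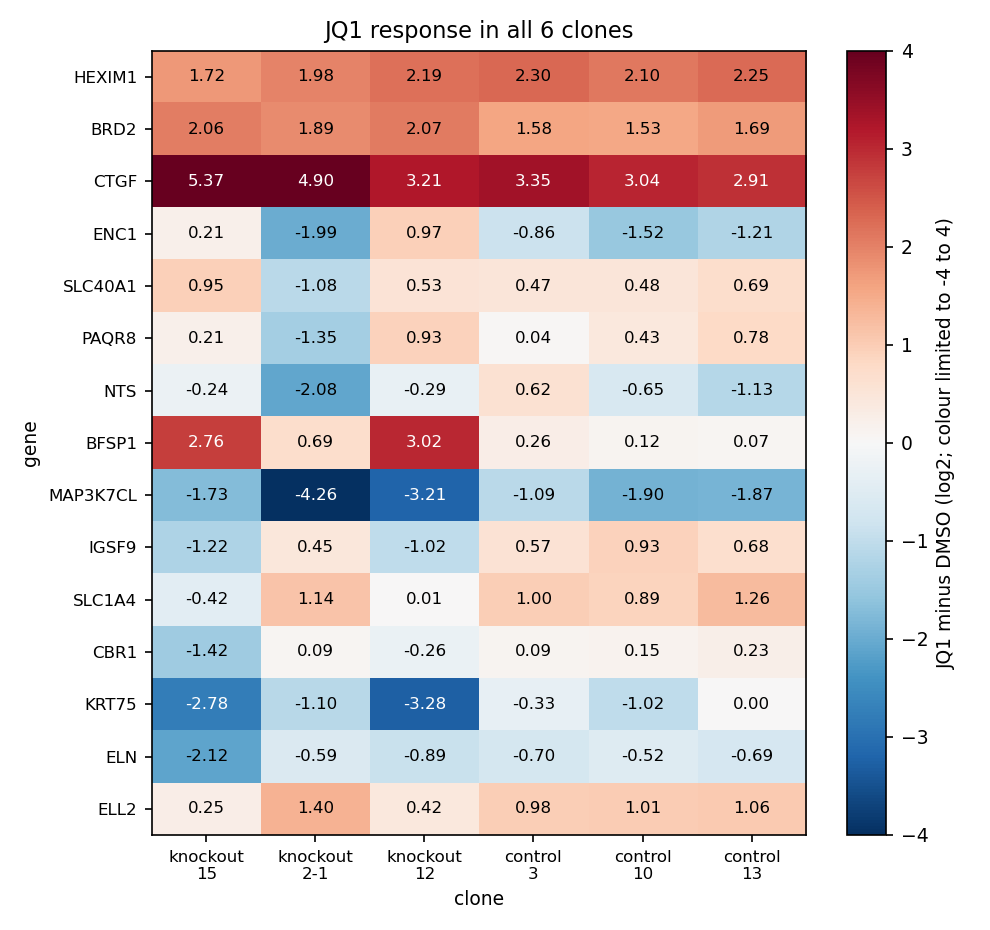
Cells give the log2 JQ1 minus DMSO response of 15 genes in knockout clones 15, 2-1 and 12 and control clones 3, 10 and 13 (means of 3 libraries per treatment; 2 for clone 12 with JQ1), in red for higher and blue for lower with JQ1. HEXIM1, BRD2 and CTGF are positive in all 6 clones, and SLC40A1 is negative in clone 2-1 alone (-1.08).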

How the data were processed

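The deposited values are gene counts that the authors scaled with DESeq2 size factors (a signal with 1 factor for each library, per the name of the deposited file); they were used as log2(value + 1), on which changes of low genes are understated. The authors' deposited FPKM values, scaled by gene length and library size, served as an alternative with an offset of 0.1. The submitters' processing notes name cutadapt, STAR, RSEM and hg19 without versions. Whole reads were recovered from the steps of the normalized values (100% whole within 1e-06), with 15360100 to 18890506 per library. How reads of similar or antisense genes were counted is not given in the notes.

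The 12 libraries were fitted with 4 group means in limma 3.58.1 (trend; R 4.3.3). A gene was tested where 3 or more libraries reached 10 normalized counts (15913 genes). Two-sided p-values were adjusted by Benjamini-Hochberg over all tested genes (threshold 0.05), and an adjusted p is limma's unless another tool is named. On whole reads, edgeR 4.0.16 called 3270 response differences and DESeq2 1.42.0 called 3055. The fits were tested on simulated data. The limma fit recovered 62.7% of 1.5-fold, 91% of 2-fold and 100% of 4-fold response differences, and 7.65% of its calls were false. Unchanged genes had 1 mean in all 12 libraries of that simulation, unlike these data. At the 3 folds 67, 67 and 66 of 15913 genes were changed, all with a mean of at least 50. In these data 20.8% of genes were called, so the recovered and false shares may differ here. Plots used matplotlib 3.10.9 under Python 3.11.15.

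The members and gene lists were chosen with earlier results of these data known. Named genes were NEUROD1 and 8 chosen genes; the 10 largest shared rises and falls, the 15 largest response differences each way, up to 10 opposite responses and the 5 largest DMSO differences each way, with a mean of at least 50 and, for responses, groups that do not overlap (for differences, in the clone with the larger response); and up to 4 members of each described list. The 15 largest differences each way among genes expressed in both clones, that filter, and PEG10, EEF1A1, IGJ, C1QB, CD68, ZMYND8 and TRIM29 were chosen after their values were seen. Chromosomes are from GENCODE 29 (97.03% of genes matched), and promoters from RefSeq on GRCh38.p14. Some named genes are not reported here.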

Additional observations from a re-analysis of the deposited data

Results flagged for a closer look

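A response difference between clones 15 and 2-1, tested as the interaction of clone and treatment in limma, was called for 3302 genes. Values below are log2 response differences, clone 15 minus clone 2-1. Among genes described above they were SAT1 (0.42), BRD2 (0.17), CDKN1A (0.21), KRT15 (-3.46), KRT75 (-1.68), AKR1C3 (-3.06), MAP3K7CL (2.52), RASSF9 (2.38), IGSF9 (-1.67), ENC1 (2.20), SLC40A1 (2.03), PAQR8 (1.56), SLC1A4 (-1.56) and PGBD5 (-1.80).

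The largest positive differences included genes with 0 or almost 0 reads in clone 15, VIT (3.72), CUBN (3.63), EMCN (2.85), RFX4 (2.37) and LMO3 (2.32), whose response was called in clone 2-1 and not in clone 15. They also included genes that fell in clone 2-1 to a mean of at most 14.4 normalized counts, AC003090.1 (4.87), RERG (2.74), RP11-279F6.1 (2.50), DCT (2.46), GLIS3 (2.40), TRAC (2.46), PKDCC (2.37) and SRRM3 (2.31). MAGI1, an adhesion scaffold, and SMN2, a splicing factor gene with a near-identical copy, had opposite responses (differences of 1.53 and 1.53).

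Negative differences included genes that fell in clone 15 and had a mean of at most 14.3 normalized counts with either treatment in clone 2-1, PAPPA (-3.08), FGF18 (-2.59), RIPK4 (-2.29), TCHH (-2.24), AC011738.4 (-2.22), BDKRB1 (-2.13), ACKR3 (-1.73) and PDZD2 (-1.67). For AC011738.4 the fall in clone 15 (-0.84) was smaller than the difference, and its response in clone 2-1 was a rise at these low counts. RMDN2 (-1.93) and FAM156A (-1.68) also fell in clone 15, at higher levels in clone 2-1. FAM156A has a near-identical copy and its value is uncertain.

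The call of 5 of these differences was lost in limma when single libraries were left out. TRAC lost it without any of 7 libraries (differences 2.00 to 2.47, adjusted p 0.053 to 0.071), DCT without any of 8 (1.90 to 2.51, 0.055 to 0.090), ACKR3 without any of 9 (-1.82 to -1.40, 0.067 to 0.0999) and PDZD2 without any of 3 (-1.39 to -1.37, 0.054 to 0.058). LMO3 lost it without clone 2-1 DMSO replicate 2 (2.21, adjusted p = 0.054). The rise of MAGI1 in clone 15 (0.51) was lost without any of 3 libraries (0.34 to 0.48, adjusted p 0.056 to 0.12), the fall of SMN2 in clone 2-1 (-0.64) without any of 4 (-0.62 to -0.47, 0.062 to 0.13) and the fall of AC011738.4 in clone 15 (-0.84) without any of 3 (-0.83 to -0.70, 0.058 to 0.11).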

How the results depend on the processing

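The counts of genes called in each clone, in both clones and with DMSO stayed within 1.5 times under every alternative but the 2-fold minimum: other pseudocounts and low-value filters, equal library totals, TMM, FPKM, edgeR, DESeq2, no trend in the prior, fits of all 36 or of 35 libraries, replicate blocks, genes expressed in both clones and single libraries left out. With the 2-fold minimum, 2275 genes were called in clone 15, 2659 in clone 2-1, 1523 in both, 442 for the response difference and 2268 with DMSO. The response difference (3302 genes) fell to 1471 with FPKM and to 991 in the fit of all 36 libraries, and was 3021 without the clone 12 library that stood apart; the cause for FPKM was not tested. It was 3270 in edgeR and 3055 in DESeq2. Leaving out single libraries gave 2668 to 3273 genes for the response difference, 9307 to 9903 for clone 15, 9565 to 10311 for clone 2-1, 7360 to 7559 for both and 8629 to 9481 with DMSO.

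Same-numbered libraries of different groups correlated at -0.14 to 0.13, and differently numbered ones at -0.15 to 0.11. The ranges overlapped, so no pairing by replicate number was seen across the groups as a whole. With the replicate number as a block the response difference was called for 3207 genes, and with a block within each clone for 2996; the DMSO contrast could not be fitted with the block within clones.

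Of 159 named genes, 40 had a call that changed when some single library was left out, mostly low genes or small differences. The response difference, not called in either case, changed sign for TEX14 with FPKM (0.10), HTR1A with a pseudocount of 5 (0.039) and PRND in DESeq2 (-0.10). With single libraries left out it ranged across 0 for HIST2H3A (-3.98 to 0.41, positive without clone 2-1 DMSO replicate 1), HIST2H2AA3 (-0.22 to 0.030, positive without clone 2-1 DMSO replicate 3), MIR205HG (-0.81 to 0.17) and COLCA1 (-1.10 to 0.028, both positive without clone 2-1 JQ1 replicate 3) and ADAM21 (-0.14 to 0.57, negative without clone 15 JQ1 replicate 3). SEMA3D and DCN, called in limma, reversed in edgeR (-0.53 and -0.56, no call), and the rise of MAGI1 in clone 15 reversed with FPKM (-0.45, no call). AXL and IGFBP3 kept their direction with FPKM but lost the call. Depth limits genes near 0 in 1 clone, whose response there cannot be read.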

Other observations

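Other lists are given here as values only. Of 30 homologous recombination and Fanconi repair genes, 12 had a negative response difference (clone 15 minus clone 2-1) and 3 a positive one, beside 10.3% and 10.4% over all genes tested; with FPKM 3 were negative and 0 positive, beside 4.73% and 4.51%. Of 15 NF-kB target and cytokine genes, 5 were negative and 0 positive, and with FPKM 2 and 0. Of 24 interferon-stimulated genes, 15 fell in clone 15 and 14 in clone 2-1, beside 33.2% and 34.4% of all genes, and their response differences, 2 negative and 1 positive, were no more frequent than over all genes.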
